A study of Mus musculus with 10 samples.

Results

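Mice sold or kept as C57BL/6 belong to several substrains that have been bred apart, and a small number of genes differ between them in sequence, copy number or expression. Nnt, Wdfy1, Entpd4, Gabra2, Ide and Fgfbp3 are 6 such genes, chosen by name from general knowledge of these substrains. All 6 were among the 24972 genes of the deposited tables and all 6 passed the filter on low counts, which left 14378 genes. The labels give the strain as C57BL/6 without a substrain, so each gene was described in every library, with attention to levels that fall into separate steps.

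The libraries were RNA-seq libraries of cortex from male mice aged 2.5 months. The control group was 5 control littermates (genotype label Atad3 control) and the nKO group was 5 Atad3 nKO animals. What nKO abbreviates is not given, nor is a Cre line, promoter, litter or parental substrain. Each library is 1 tissue sample, and in whole tissue fewer cells of a type and less RNA per cell cannot be told apart.

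Nnt encodes the proton-driven transhydrogenase of the inner mitochondrial membrane, which makes NADPH, and C57BL/6J mice carry a deletion of several of its exons. Gabra2 encodes the alpha2 subunit of GABA-A receptors, the main inhibitory receptors of the cortex, and an intronic deletion in C57BL/6J lowers its expression. Ide, a protease of insulin and amyloid-beta, and Fgfbp3, a secreted protein that binds fibroblast growth factors, lie in a segment of chromosome 19 that is duplicated in some C57BL/6J animals. Wdfy1 encodes a WD-repeat and FYVE-domain protein of early endosomes. Entpd4 encodes an intracellular nucleotidase, and the reference genome holds a near-identical copy, Entpd4b.

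Depth ran from 14812639 to 24161361 estimated counts per library. Levels are given as CPM (counts scaled by library size) after TMM scaling unless TPM, which also accounts for length, is named. Control 1 stood apart: it was the highest library by at least 1.5-fold in 596 of the tested genes, against 2 to 18 genes for each other library. Summed markers of cortical neurons (6 genes) ran from 948 to 1242 CPM, and those of striatum (6 genes) from 112 to 143 CPM. Hippocampal markers (5 genes) summed to 44.6 to 77.4 CPM and glial and vessel markers (12 genes) to 2106 to 2399 CPM. The sums of the groups overlapped in all 4 lists. Tbr1, Rgs9, Prox1 and Flt1 had the smallest p of their lists, with log2 fold changes of 0.57, 0.23, 0.34 and 0.32 (adjusted p = 0.820 each, edgeR). Lower estimates in nKO numbered 2, 2, 1 and 8 in these lists. Among those 8 was Cldn5, a vessel marker like Flt1, with a log2 fold change of -0.52 (adjusted p = 0.820, edgeR). Prox1 read 9.54 to 10.9 CPM in controls and 12.2 to 14.9 CPM in nKO, and 1.38% of tested genes had groups that did not overlap. The part of these markers in the results below was not tested. Atad3a, from the targeted locus, read 22.2 to 26.6 CPM in controls and 8.95 to 14.4 CPM in nKO. On the log2 scale it differed by -1.04 (SE 0.12, adjusted p = 0.00634, edgeR quasi-likelihood test with Benjamini-Hochberg adjustment, lower in 5 of 5 nKO libraries), in the direction of the labels.

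The first question was whether the 6 genes differ between the genotypes. None did by the test used: 0 of 6 passed an adjusted p of 0.05 in edgeR, 0 had an unadjusted p under 0.05, and 0 had groups that did not overlap. Over all tested genes the adjusted threshold called 0.0139%, the unadjusted one 5.65%, and 1.38% had groups that did not overlap. DESeq2 called 0 of the 6 as well. The estimate was higher in nKO for 5 members and lower for 1, with a median log2 fold change of 0.13 against -0.01 over all tested genes. Over all tested genes 6866 estimates were higher and 7512 lower. The sign for Nnt and for Ide turned without a single library, and that for Entpd4 when summed with Entpd4b, as given below. In the gene lists described below, no gene was called, and 0 to 2 genes of each had an unadjusted p under 0.05.

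**Figure D1:**
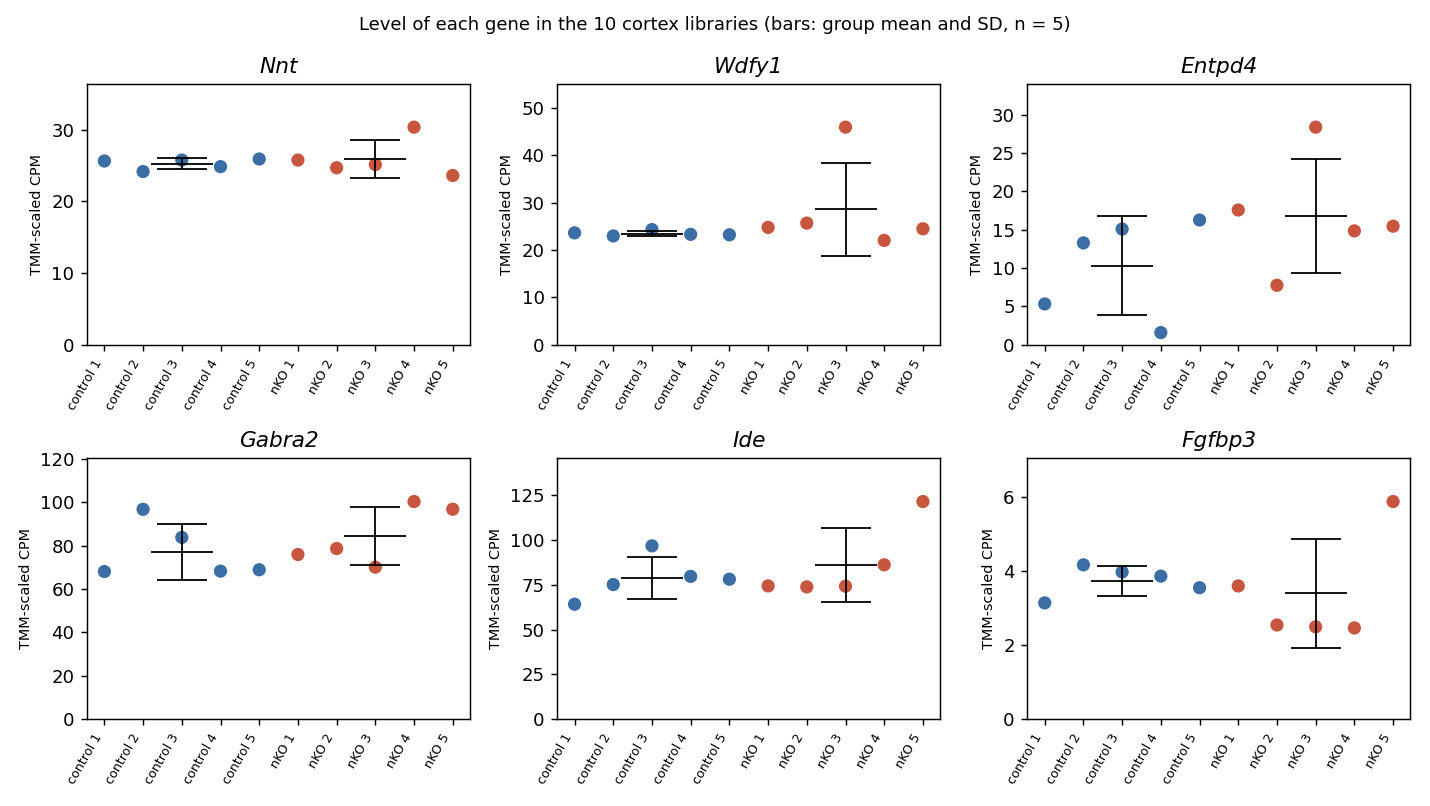
TMM-scaled CPM (y axes, from 0) of the 6 genes in each library (x axes, control blue, nKO red), with the mean and SD of each group of 5 in black. Wdfy1 stands at 45.9 in nKO 3 with the other libraries between 22.02 and 25.7, and Entpd4 runs from 1.58 to 28.4.

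**Figure D2:**
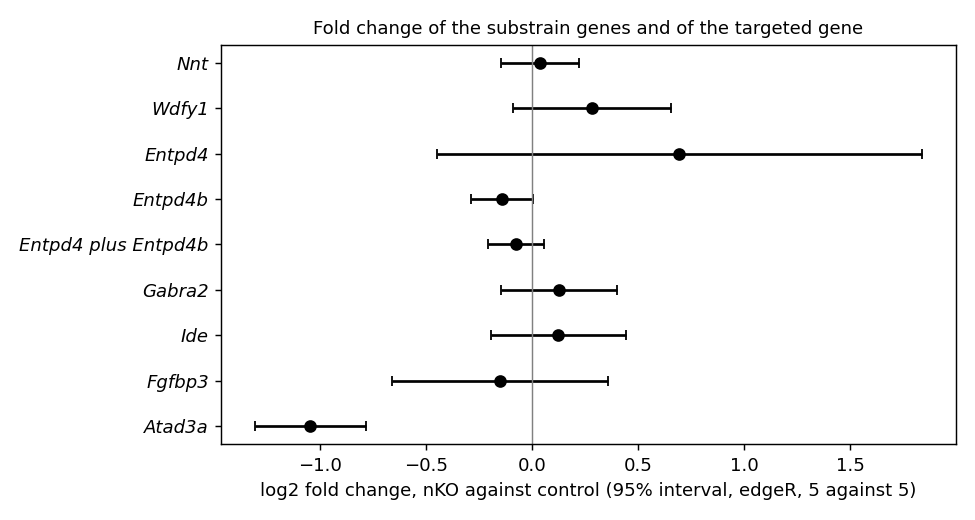
Log2 fold change of nKO against control (x axis) with its 95% interval from edgeR for the 6 genes, the copy Entpd4b, the sum of both copies, and Atad3a. Intervals of the 6 genes all include 0, and that of Entpd4 is the widest, from -0.45 to 1.84.

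Per length, in TPM, Gabra2 and Ide had the highest control means among the 6, at 42.8 ± 6.87 and 40.6 ± 6.09 (SD, n = 5), which did not differ beyond their spread. Nnt followed at 19.03 ± 1.12 and Wdfy1 at 16.3 ± 2.08. Fgfbp3 at 10.99 ± 2.25 and Entpd4 at 9.28 ± 6.04 were lowest, and their ranges overlapped.

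Nnt (mm10 chr13:119335527-119409257) varied least of the 6. Its controls read 25.6, 24.1, 25.7, 24.8 and 25.9 CPM, and its nKO libraries 25.7, 24.7, 25.1, 30.3 and 23.6 CPM. The groups overlapped, and nKO 4 was the highest library. The coefficient of variation over the 10 libraries was 7.19%, below the lower quartile of all tested genes (9.60%, median 13.7%). For Nnt the edgeR estimate in nKO was a log2 fold change of 0.04 (95% interval -0.15 to 0.22, SE 0.08, adjusted p = 0.964), and it was -0.035 without nKO 4. No pair of neighbouring libraries, with at least 2 libraries on each side, was more than 1.02-fold apart.

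The tables list Nnt as a record of 3645 bases, NM_001308506, and one 969 bases longer, NM_008710. The shorter record took 94.4% to 98.8% of the gene's TPM, with 16.7 to 23.5 TPM. The longer one read 0.641, 1.05, 0.815, 0.895 and 0.819 TPM in controls and 0.889, 0.234, 0.595, 1.13 and 0.913 TPM in nKO. It was low in all 10 libraries, on 6.56 to 35.7 reads each, and no library switched to it. Which bases of the longer record drew those reads is not known from the tables.

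Among 9 genes of mitochondrial NADPH supply that include Nnt, 4 had higher and 5 lower estimates and 0 were called. Idh2, the mitochondrial NADP-dependent isocitrate dehydrogenase, had the smallest p of that list, with a log2 fold change of -0.24 (adjusted p = 0.820 in edgeR). Of the 7 genes listed around Nnt, 0 were called and 0 had a step of 1.5-fold. Nim1k had the smallest p of these, with a log2 fold change of -0.18 (adjusted p = 0.820 in edgeR). The genes most correlated with Nnt over the 10 libraries were Wdhd1 (r = 0.86), Trim13 (r = 0.85) and Mpped2 (r = 0.83), none of them on chromosome 13.

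Wdfy1 differed in 1 animal. Controls read 23.6, 23.0, 24.3, 23.3 and 23.2 CPM, a coefficient of variation of 2.21%. The nKO libraries read 24.8, 25.7, 45.9, 22.02 and 24.5 CPM. The groups overlapped, and nKO 3 alone was high, 1.95 times the median of the other 9 libraries. In counts it held 774 reads (exact Poisson 95% interval 720 to 831, counting error only), while the other libraries held 358 to 593. For Wdfy1 the edgeR estimate in nKO was a log2 fold change of 0.28 (95% interval -0.09 to 0.66, SE 0.17, adjusted p = 0.830) and fell to 0.04 without nKO 3.

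The excess was in the long record. Wdfy1 is annotated on the minus strand of chromosome 1 (mm10 chr1:79702262-79776143), and its records NM_001111279 (4551 bases) and NM_027057 (717 bases) match the lengths of GENCODE Wdfy1-204 and Wdfy1-201. By genomic position they share their first 485 coding bases and then part. The letters below, from GENCODE on GRCm38, give the last 45 shared coding bases in lower case. Capitals give the next 45 coding bases of each transcript. Both stretches of capitals open with the same few letters and differ after them. Reads that run past those letters can tell the transcripts apart.
Wdfy1-204: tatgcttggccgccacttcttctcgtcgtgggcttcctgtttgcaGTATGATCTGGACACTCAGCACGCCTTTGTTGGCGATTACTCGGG
Wdfy1-201: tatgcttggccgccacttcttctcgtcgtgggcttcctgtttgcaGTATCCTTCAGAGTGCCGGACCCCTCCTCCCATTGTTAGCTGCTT
NM_001111279 read 12.1 to 13.7 TPM in controls, 27.0 TPM in nKO 3 and 12.6 to 15.1 TPM in the other nKO libraries. NM_027057 read 0 to 7.04 TPM, and nKO 3 lay inside that range at 2.88 TPM.

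Genes beside Wdfy1 were not raised in nKO 3. Mrpl44, a mitochondrial ribosomal protein gene that overlaps Wdfy1's annotated span, read 17.2 CPM there, sixth of the 10 libraries. Serpine2, 18174 bases away, read 128 CPM and ranked seventh, as did Ap1s3 at 1.246 CPM and Scg2 at 286 CPM. Across libraries these 4 genes correlated with Wdfy1 at r from -0.21 to -0.10.

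Among 8 genes of the WDFY family and the TLR3 and TLR4 route, 4 had higher and 4 lower estimates and 0 were called. The genes most correlated with Wdfy1 were Trim25 (r = 0.84), Tmem42 (r = 0.83) and Arhgef37 (r = 0.82), none on chromosome 1.

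Entpd4 had the widest range. Controls read 5.31, 13.3, 15.1, 1.58 and 16.3 CPM, and nKO libraries 17.6, 7.75, 28.4, 14.8 and 15.5 CPM. The groups overlapped, with control 4, control 1 and nKO 2 low and nKO 3 high. The highest library was 17.9 times the lowest, and the coefficient of variation was 54.8%. For Entpd4 the edgeR estimate in nKO was a log2 fold change of 0.70 (95% interval -0.45 to 1.84, SE 0.52, adjusted p = 0.860). It was 0.41 without nKO 3, 0.42 without control 4 and 0.92 without control 5.

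These values may rest on reads that Entpd4 shares with Entpd4b, which was not tested, so the split between the copies is uncertain. The genes lie on chromosome 14 at chr14:69337151-69366742 and chr14:69555401-69584940 (mm10), 188659 bases apart. GENCODE transcripts Entpd4-206 and Entpd4b-204 are identical over all 3589 bases. The records counted here have other lengths, 3060 and 3084 bases for Entpd4 and 3008 and 3032 bases for Entpd4b. They were not matched to this GENCODE pair, and their bases were not compared. The first 90 coding bases of the GENCODE pair are shown with the start codon in capitals, since a read from within this stretch fits both transcripts equally.
Entpd4-206: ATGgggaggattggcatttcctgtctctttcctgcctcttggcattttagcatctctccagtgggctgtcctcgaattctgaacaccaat
Entpd4b-204: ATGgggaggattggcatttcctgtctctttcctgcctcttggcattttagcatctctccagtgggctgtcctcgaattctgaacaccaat

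The tables hold each record as a pair, one with a suffix, for Entpd4 and for Entpd4b alike. Which locus a suffix stands for was not examined. Over the records of both genes, the suffixed ones took 45.1% to 53.3% of the TPM. NM_001360352 of Entpd4 read 0 TPM in control 1 and control 2 and 13.8 TPM in control 3, while its suffixed pair read 4.24, 12.2 and 0 TPM in those libraries. NM_026174 and its pair were listed at 0 in every library. Entpd4b stayed between 142 and 177 CPM, and Entpd4 made up 0.931% to 16.5% of the TPM of both genes.

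Summed, the copies varied little. The sum was 178 ± 7.15 CPM in controls and 169 ± 7.73 CPM in nKO (SD, n = 5), with a coefficient of variation of 4.88%. For the sum the log2 fold change came to -0.075 (95% interval -0.21 to 0.057, SE 0.06, adjusted p = 0.860 in edgeR), opposite in sign to that of Entpd4 alone. In nKO 3, where Entpd4 was highest, Entpd4b was lowest and the sum ranked seventh of 10. Of 8 tested genes of the ENTPD family, 0 were called. Entpd5, a nucleotidase of the endoplasmic reticulum, had the smallest p of that list, with a log2 fold change of 0.15 (adjusted p = 0.820 in edgeR). Of 6 genes listed around Entpd4, 0 were called and 2 had an unadjusted edgeR p under 0.05, against 5.65% of all tested genes. The 2 were Chmp7, a gene of the ESCRT-III membrane machinery, and Slc25a37, mitoferrin-1. Their log2 fold changes were -0.16 and 0.22 (adjusted p = 0.820 for both in edgeR). Slc25a37 read 16.1 to 20.8 CPM in controls and 21.2 to 24.2 CPM in nKO. Groups that did not overlap, as here, were found in 1.38% of tested genes. Pln (r = 0.91), Tent5c (r = 0.89) and Tesk2 (r = 0.88) followed Entpd4 most closely over the libraries, on Entpd4 values that may rest on the uncertain split.

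**Figure D3:**
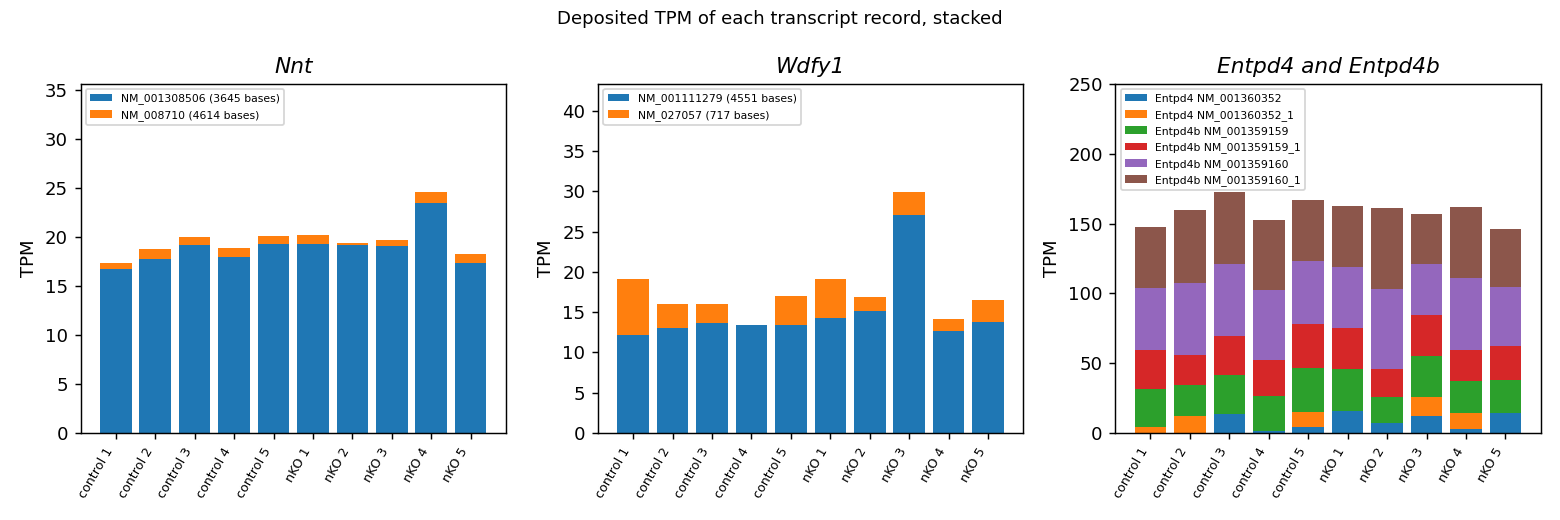
Deposited TPM (y axes) of each transcript record in each library (x axes), stacked by gene, for Nnt, Wdfy1 and the pair Entpd4 and Entpd4b. The longer Nnt record stays at or under 1.13 TPM, the long Wdfy1 record reaches 27.0 TPM in nKO 3, and the Entpd4 share of the stack changes while its height runs from 146 to 173 TPM.

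Gabra2 (mm10 chr5:70958392-71095849) had a coefficient of variation of 16.6% in controls and 15.9% in nKO. Controls read 68.1, 96.8, 83.8, 68.3 and 68.9 CPM, and nKO libraries 75.9, 78.7, 70.1, 100.4 and 96.8 CPM. The groups overlapped, and control 2, nKO 4 and nKO 5 were the high libraries. The largest gap separated these 3 from the other 7 and was 1.154-fold, a size met or passed by 25.5% of tested genes. For Gabra2 the edgeR estimate in nKO was a log2 fold change of 0.13 (95% interval -0.15 to 0.40, SE 0.13, adjusted p = 0.879). It was 0.051 without nKO 4, 0.075 without nKO 5 and 0.22 without control 2.

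Of 13 tested GABA-A receptor subunits, 7 had higher and 6 lower estimates and 0 were called. Gabra3, the alpha3 subunit, had the smallest p, with a log2 fold change of 0.24 (adjusted p = 0.820 in edgeR). Gabra4, 473885 bases from Gabra2 in the same receptor gene cluster, correlated with it at r = 0.76, a value that 4.11% of genes reached. The closest genes were Prkg2 (r = 0.96, also on chromosome 5), Exoc5 (r = 0.96) and Casc4 (r = 0.96).

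Ide read 64.2, 75.2, 96.8, 79.7 and 78.2 CPM in controls and 74.4, 73.9, 74.3, 86.2 and 121.6 CPM in nKO. The groups overlapped, and nKO 5 was highest, followed by control 3. For Ide the edgeR estimate in nKO was a log2 fold change of 0.13 (95% interval -0.19 to 0.44, SE 0.15, adjusted p = 0.903), and it was -0.031 without nKO 5. Of 9 tested peptidases in the list of amyloid and insulin degrading enzymes, Ide included, 0 were called. Nrd1, a metallopeptidase related to Ide, had the smallest p of that list, with a log2 fold change of 0.17 (adjusted p = 0.820 in edgeR).

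Fgfbp3 was the least counted of the 6. Controls read 3.14, 4.17, 3.98, 3.86 and 3.55 CPM, and nKO libraries 3.60, 2.54, 2.49, 2.46 and 5.88 CPM. The groups overlapped: nKO 5 was the highest of all libraries, nKO 1 lay among the controls, and nKO 2, nKO 3 and nKO 4 were lowest. In counts nKO 5 held 86 reads (exact Poisson 95% interval 68.8 to 106) and nKO 3 held 42 (30.3 to 56.8), which covers counting error only. For Fgfbp3 the edgeR estimate in nKO was a log2 fold change of -0.15 (95% interval -0.66 to 0.36, SE 0.24, adjusted p = 0.932), and -0.43 without nKO 5. Leaving out nKO 2, nKO 3 or nKO 4 instead gave -0.069, -0.065 and -0.060. Of 6 tested genes of FGF binding and FGF signalling, 0 were called. Fgfr1, an FGF receptor, had the smallest p of that list, with a log2 fold change of 0.33 (adjusted p = 0.820 in edgeR).

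Ide and Fgfbp3 lie 349144 bases apart on chromosome 19 (mm10 chr19:37268743-37334544 and chr19:36917550-36919599), and both were highest in nKO 5. Over the 10 libraries Pearson's r was 0.64 (permutation p = 0.0485, adjusted p = 0.445 over 15 pairs of members) and Spearman's rho was 0.50 (permutation p = 0.143). Without control 3 and nKO 5, the libraries farthest from the median of Ide, r was -0.09. Leaving out nKO 5 alone gave r = 0.20 and leaving out control 3 alone gave r = 0.62, so the relation rests on nKO 5. Of the 15 pairs, 1 had an unadjusted p under 0.05 and 0 an adjusted one.

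Genes between and around this pair were then read in order. Btaf1, a regulator of the TATA-binding protein and 6480 bases from Fgfbp3, ran from 94.6 to 176.9 CPM and was also highest in nKO 5. So was Ppp1r3c, a glycogen regulator gene 180946 bases from Fgfbp3 on the side away from Ide, at 95.2 CPM, and it correlated with Ide at r = 0.70. Cpeb3, an RNA-binding protein gene that lies between Btaf1 and Ide, read 77.0 CPM in nKO 5, sixth of the 10 libraries. March5, a ubiquitin ligase gene also between them, read 101.7 CPM there and ranked behind 2 other libraries. The high level in nKO 5 was therefore not shared by every gene between Fgfbp3 and Ide. Genes around other members were highest in nKO 5 too, such as Paip1 on chromosome 13 and Scg2 on chromosome 1. The share of all tested genes that were highest in nKO 5 was not computed. The bounds of the segment duplicated in some animals were not looked up, copy number was not measured, and the cause was not tested. Ide correlated with Btaf1 at r = 0.85, which 0.202% of genes reached, with March5 at r = 0.73 and with Cpeb3 at r = -0.19. Control 1, the library that stood apart, was lowest for Ide, Btaf1, March5, Ppp1r3c, Tnks2 and Exoc6. It was also lowest for Paip1 and Hmgcs1 on chromosome 13, but not for Fgfbp3, Cpeb3, Kif11 or Hhex. The correlations with neighbours were not recomputed without it. Of the 8 neighbours measured, 0 were called. Cpeb3 had a log2 fold change of 0.23 (adjusted p = 0.820 in edgeR), Kif11 -0.19, Hhex 0.05, Exoc6 0.04, Tnks2 -0.04, Ppp1r3c 0.00341, Btaf1 0.05 and March5 -0.02.

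The genes that followed Ide most closely lay on other chromosomes: Ccng2 (r = 0.91), Pdf (r = 0.91) and Arntl (r = 0.90). So did those of Fgfbp3: C030018K13Rik (r = 0.90), Rab3gap2 (r = 0.89) and Sec16b (r = 0.88).

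**Figure D4:**
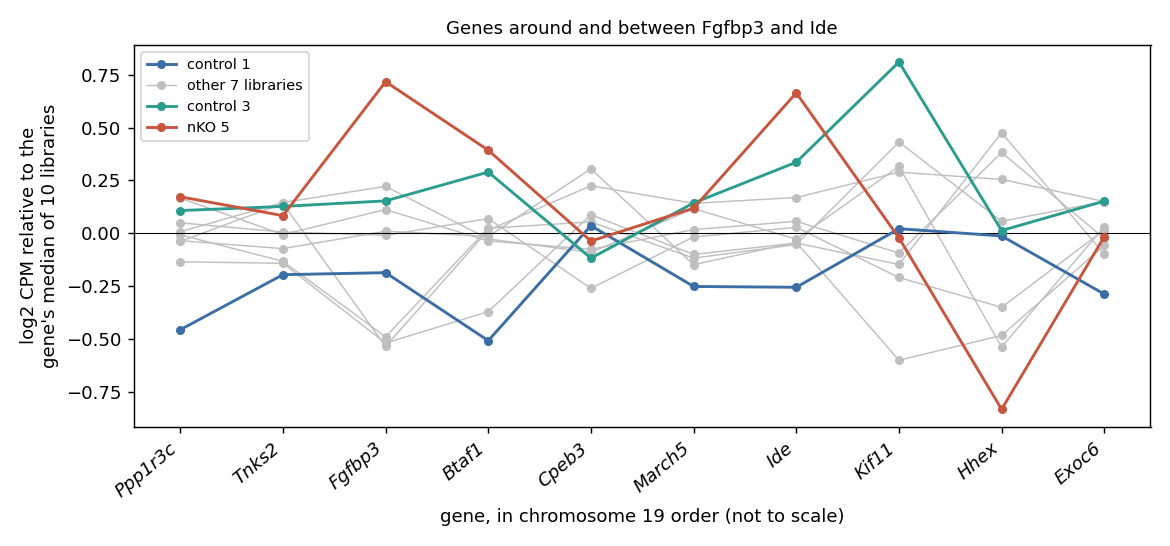
Log2 CPM relative to each gene's median of 10 libraries (y axis) for Ide, Fgfbp3 and 8 neighbours in chromosome order (x axis, not to scale), 1 line per library. The nKO 5 line peaks at Fgfbp3, Btaf1 and Ide and returns to -0.04 at Cpeb3 and 0.12 at March5.

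A step was defined as a gap of at least 1.5-fold between neighbouring libraries in order of level, with at least 2 libraries on each side. Entpd4 alone of the 6 had one, of 1.70-fold, with control 4, control 1 and nKO 2 below the other 7 libraries. Over all tested genes 1.21% had such a step. Without control 1, or any other single library, the number of members with a step was also 1. Leaving out libraries cannot check the uncertain split of reads between Entpd4 and Entpd4b, on which this step may rest. Their sum ran from 157 to 185 CPM, the highest library 1.18 times the lowest, and so had no step. With 1 library allowed on a side, a rule added after the values were seen, Wdfy1 joined with a gap of 1.79-fold under nKO 3, and the share over all tested genes was 9.12%. The largest gaps of the others, so counted, were 1.40-fold for Fgfbp3, 1.26-fold for Ide, 1.17-fold for Nnt and 1.154-fold for Gabra2.

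Library nKO 3 was highest by at least 1.5-fold in 7 genes, 0.0487% of those tested, and Wdfy1 and Entpd4 were both among them. This library was picked after their levels in it were seen. Their presence among the 7 was thus fixed in advance, and the share is no test of it. The other 5 were Bag3, Chrm5, Htra3, Ifi44 and Slc25a35, read at 1.19 to 3.80 CPM in nKO 3, and the 7 genes lie on 7 chromosomes. For Entpd4 this count may rest on the uncertain split with Entpd4b. Nnt, Gabra2, Ide and Fgfbp3 ranked sixth to ninth in nKO 3, so this library did not stand apart for them.

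**Figure D5:**
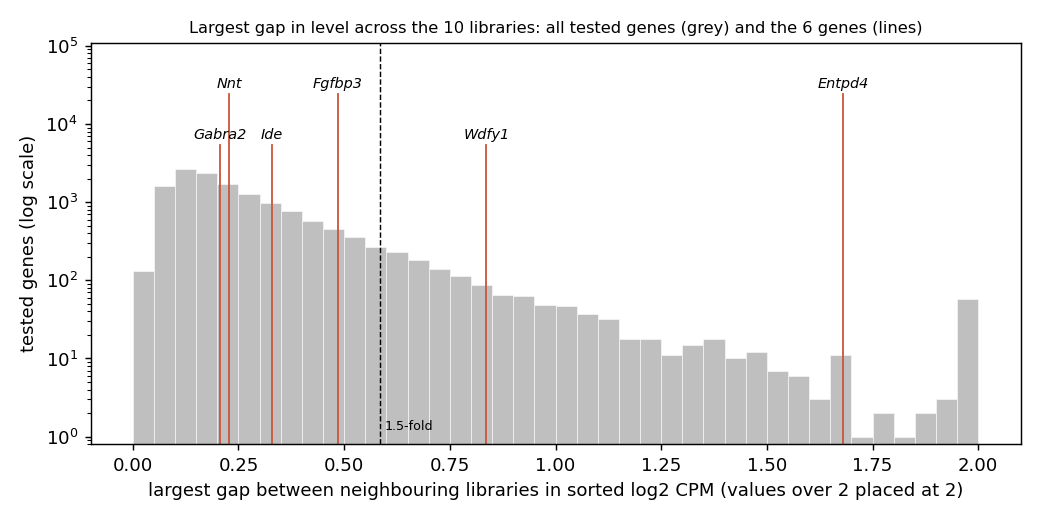
Number of tested genes (y axis, log scale) by the largest gap between neighbouring libraries in sorted log2 CPM (x axis, 1 library or more on a side, values over 2 placed at 2), with the 6 genes as red lines and 1.5-fold as a dashed line. Only Wdfy1 (1.79-fold) and Entpd4 (3.21-fold, under which lies control 4 alone) pass the dashed line.

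Other genes known to differ between C57BL/6 substrains were read the same way. Mmrn1, which encodes a platelet and endothelial protein, drew 0 to 6.04 reads and Nlrp12, an innate immune receptor gene, 0 to 3.02 reads, and neither passed the count filter. Dock2, a Rac activator of immune cells, ran from 6.04 to 8.19 CPM, and Cyfip2, an actin regulator of synapses, from 570 to 905 CPM. Crb1, a cell polarity gene, ran from 0.846 to 3.97 CPM with nKO 4 highest, 1.72-fold above the next library. Dock2, Cyfip2, Crb1 and Entpd4b were not called in edgeR, each with an unadjusted p over 0.05, and had no step with 2 libraries on each side.

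Transcripts were also compared between the groups in TPM. Of 11 records of the 6 genes, 9 passed the mean TPM filter, and 0 had an exact permutation p under 0.05. The smallest p was 0.0714 (adjusted p = 0.464, two-sided exact permutation test) for NM_001360352 of Entpd4, in a design whose smallest possible p is 0.00794. The log2 difference was 3.24 for this record but -1.05 for its suffixed pair. Each record of the pair read 0 TPM in libraries where the other did not. The split of reads between them is uncertain, so the test of either record alone cannot show a change in transcript level.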

How the data were processed

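Per the labels' protocols, stranded total RNA libraries were made from frozen cortex. Per the submitters' processing notes, bcl2fastq, Salmon, DESeq2 and mm10 were used, without versions. The authors deposited estimated counts from Salmon, which shares out a read among all transcripts it matches, for each gene and transcript of each library, per the file headers. TPM values stand beside them in the deposited tables and account for effective length. A deposited table of scores for other genes was not used here, as it holds none of the 6.

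Counts were rounded, low genes were removed with filterByExpr (at least 10 counts, 15 in total), and libraries were TMM-scaled. Groups were compared with edgeR 4.0.16 (robust quasi-likelihood test) run in R 4.3.3. Values of p were adjusted over 14378 genes (Benjamini-Hochberg) and the threshold was 5%. The script was tested on simulated counts. DESeq2 1.42.0, other scalings and filters, and leaving out each library were alternatives. Log2 CPM used a prior count of 2. Transcripts with a mean of at least 0.1 TPM were compared on log2(TPM + 0.1) by exact permutation of the samples. Pairs of genes were tested with 100000 permutations. Positions come from the RefSeq table of GRCm38.p6 and sequences from GENCODE on GRCm38.

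The 6 genes and all gene lists were chosen with earlier results of these data known. Genes named are the 6, Atad3a, genes with the smallest p of each list (up to 4 were allowed, and fewer are printed), the other substrain genes (1 of them is not reported here) and chromosome 19 neighbours, and the 3 most correlated with each of the 6 at a mean of at least 1 CPM. Bag3, Chrm5, Htra3, Ifi44 and Slc25a35 fall outside that rule and were named after their values were seen. For the genes most correlated with each of the 6, a high r follows from how they were picked and was not tested. Labels describe biological replicates but no litter, batch or pairing, and p-values measure the spread between these samples.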

Additional observations from a re-analysis of the deposited data

Results flagged for a closer look

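Each group of 5 libraries was checked for a single library far from the others, by the gap to its nearest neighbour over the group's range (Dixon's test at the 95% level). Of 36 groups checked, 4 held such a library, and chance gives about 1 in 20. Wdfy1 was 45.9 CPM in nKO 3, with the other nKO libraries at 22.02 to 25.7 CPM (ratio 0.847). Its transcript NM_001111279 was 27.0 TPM in the same library, against 12.6 to 15.1 TPM (ratio 0.825). Ide was 121.6 CPM in nKO 5, against 73.9 to 86.2 CPM (ratio 0.741), and its transcript NM_031156 was 61.5 TPM there, against 39.7 to 43.2 TPM (ratio 0.839). The gene and transcript values of each pair come from the same reads and are not separate evidence.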

How the results depend on the processing

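Of 343 values recomputed under alternatives, 332 kept their direction, side of the threshold or size. Part of this count was fixed in advance, since a range changes only when the highest or lowest library is left out. No member was called in any of 19 alternative fits (smallest adjusted p 0.704), and no scaling moved the median of all genes by more than 0.0129 (log2). Atad3a stayed lower without each library in turn, at -1.15 to -0.97 (largest adjusted p 0.0471). The log2 fold change of Nnt turned to -0.035 without nKO 4 (range -0.035 to 0.068 leaving out each library) and that of Ide to -0.031 without nKO 5 (range -0.031 to 0.21). Summing Entpd4 with Entpd4b, chosen after seeing the data, gave -0.075. The log2 difference of Nnt transcript NM_008710 turned to 0.043 without nKO 2 (range -0.43 to 0.043). Steps with 1 library a side, also chosen after seeing the data, rose from 1 gene to 2. The highest over the lowest library was 1.42 for Nnt in TPM and 1.29 in CPM. Leaving out each library gave 1.097 to 1.29 for Nnt, 1.17 to 2.09 for Wdfy1 (lowest without nKO 3), 5.34 to 17.9 for Entpd4 (lowest without control 4), 1.51 to 1.89 for Ide and 1.69 to 2.39 for Fgfbp3 (lowest without nKO 5). The cause was not tested. Depth limits Fgfbp3 (42 to 97 reads per library) and the minor records of Nnt, Wdfy1 and Entpd4. No paired analysis was possible because the labels carry no replicate numbers, litter or batch: the numbers 1 to 5 used here follow accession order within each group and only name libraries.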
